A study of Mus musculus with 265 samples.

Results

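Accessible chromatin of ERt2-Ikaros inducible B3 cells, a mouse pre-B cell line, was examined around the genes of 10 transcription factors: the ETS factors Ets1, Fli1, Elf1, Elf2, Etv6, Erg, Spi1 and Spib, and the interferon regulatory factors Irf4 and Irf8. A chromatin region belonged to a gene when the nearest start site of a protein-coding gene was that of a member and lay within 50 kb of the region's midpoint. By this rule 30 of the 20103 regions in the deposited matrix were members, and 8 of the 10 genes had at least 1. Erg and Spib had none. A region within 1 kb of the start site was called a promoter region (8 of the members, of 8786 in all) and a region farther away a distal region (22 of the members, of 7973).

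The cells carry Ikaros fused to the ERt2 ligand-binding domain, so that 4-hydroxytamoxifen brings the protein into the nucleus. Single-cell ATAC-seq was performed on 0-hour cells, collected before the drug, and on 24-hour cells, which received it with a further dose part of the way. All cells of both time-points carry the same fusion, and the cells are 1 line. Drug exposure and time cannot be told apart in this design. Each time-point had 2 Fluidigm C1 runs, runs 1 and 2 at 0 hours with 48 and 47 cells and runs 3 and 4 at 24 hours with 60 and 72 cells. The run was the replicate (n = 2 per time-point), and the sources used here do not say whether runs came from separate cultures, so p-values measure only the spread between runs, which may be technical.

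ETS factors bind DNA through a shared ETS domain that reads a GGAA core. PU.1, the product of Spi1, and its relative Spi-B also recruit IRF4 or IRF8 to composite sites where an ETS core and an IRF core lie side by side, and such sites work in the immunoglobulin light chain enhancers of B-lineage cells. Irf4 and Irf8 are known to help pre-B cells leave the cycle and rearrange their light chain genes, and Ikaros, itself a DNA-binding factor, is known to promote the same step. Ets1 and Fli1 are neighbours on chromosome 9, read in opposite directions, with start sites 93.4 kb apart.

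Short motifs were searched on both strands of 150-base windows centred on each region of mm10. The 6 windows printed here carry the results below or a motif match. Capitals mark the match, all letters are the reference forward strand, and a stretch without capitals held no match.
Ets1, 23.1 kb upstream, chr9:32613039-32613188: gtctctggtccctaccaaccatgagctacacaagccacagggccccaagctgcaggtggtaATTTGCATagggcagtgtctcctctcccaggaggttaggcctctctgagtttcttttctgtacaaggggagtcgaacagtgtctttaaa
Fli1, 38.6 kb downstream, chr9:32504172-32504321: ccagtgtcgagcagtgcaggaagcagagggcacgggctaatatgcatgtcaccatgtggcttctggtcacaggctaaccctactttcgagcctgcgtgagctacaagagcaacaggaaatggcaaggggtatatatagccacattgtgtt
Fli1, 3.5 kb downstream, chr9:32539297-32539446: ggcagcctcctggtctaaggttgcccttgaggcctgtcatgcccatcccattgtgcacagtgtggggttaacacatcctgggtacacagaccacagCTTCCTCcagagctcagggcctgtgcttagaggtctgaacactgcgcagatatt
Etv6, 14.7 kb upstream, chr6:134020900-134021049: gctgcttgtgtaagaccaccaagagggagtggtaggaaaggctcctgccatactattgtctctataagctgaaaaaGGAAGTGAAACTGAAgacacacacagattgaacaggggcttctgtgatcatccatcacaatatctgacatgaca
Spi1, 3.7 kb upstream, chr2:91078622-91078771: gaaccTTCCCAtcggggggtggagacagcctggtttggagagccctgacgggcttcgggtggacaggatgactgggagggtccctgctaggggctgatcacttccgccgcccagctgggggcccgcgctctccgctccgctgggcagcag
Irf8, 10.9 kb upstream, chr8:120725339-120725488: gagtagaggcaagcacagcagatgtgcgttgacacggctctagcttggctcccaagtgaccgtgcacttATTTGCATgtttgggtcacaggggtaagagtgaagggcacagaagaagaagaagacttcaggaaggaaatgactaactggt
The Etv6 window holds GGAANNGAA, the form of an ETS-IRF composite site, and GAAANNGAA, the form of an interferon-response site, which overlap. The letters GAGGAAG of the PU.1 type stand on the reverse strand of the Fli1 window at 3.5 kb. The Ikaros type TGGGAA stands on the reverse strand of the Spi1 window. The Ets1 and Irf8 windows hold the octamer ATTTGCAT, the element read by Oct factors, which was looked for only after these windows had been read.

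The runs held 92639 to 164357 counts, with medians of 1676 to 2898 counts per cell, highest in run 1. Distal regions took 34.6% and 35.8% of the counts of the 0-hour runs and 30.4% and 25.3% of those of runs 3 and 4, while promoter regions took 51.0%, 48.5%, 58.3% and 66.4%. The part of these shifts in the results below was not tested. A promoter region was found for 8 of 12 B-lineage markers, 0 of 7 T-lineage, 1 of 6 myeloid, 0 of 4 erythroid and 0 of 4 fibroblast markers, and any region within 50 kb for 11, 1, 2, 1 and 0. The myeloid promoter region, at Lyz2, held 0 to 4 counts per run. Every member region had a single copy in the genome at 90% identity over 80% of its length. Fewer cells with signal and less signal per cell cannot be told apart in a sum over a run. Signal in at least 1 member region was found in 43 of 48, 35 of 47, 45 of 60 and 50 of 72 cells.

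Around Ets1, which encodes an ETS factor active in lymphoid cells, the fitted change was above 0 in all 7 regions, as it was in 37.6% of all distal regions, and none of the 7 passed the test. Its 7 regions were all distal, 5 in the stretch between Fli1 and Ets1 and 2 in an intron of Ets1. No region lay within 1 kb of the gene's start, but no protein-coding Ets1 transcript starts there. Measured from the starts of protein-coding transcripts, the 5 were nearest to Fli1. By that measure a region 59.8 kb downstream of the gene's start lay within 1 kb of an Ets1 start. It is not among the 7 and is described under other observations. The fitted log2 changes of the 7 ran from 0.27 to 2.80 with a median of 1.41, where the median of all distal regions was -0.43. In 5 of the 7, both runs at 24 hours exceeded both at 0 hours, a pattern seen in 13.3% of all distal regions, and in 0 of the 7 was the order the opposite. No member region passed the region test (edgeR quasi-likelihood test with Benjamini-Hochberg adjustment over 20103 regions, which called 0.0547% of them), and 0 passed with DESeq2. Of the 30, 6 had an unadjusted p under 0.05, as had 12.1% of all regions. Among these, 3 Ets1 regions had an unadjusted p under 0.05, which 3.20% of all distal regions had with higher signal at 24 hours.

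Of the 7 Ets1 regions, the one in the most cells lay 23.1 kb upstream of the gene's start, on chromosome 9 from 32613040 to 32613186, between genes. It had signal in 7 of 48 cells of run 1 (14.6%, 95% exact interval 6.07 to 27.8), 4 of 47 of run 2 (8.51%, 2.37 to 20.4), 14 of 60 of run 3 (23.3%, 13.4 to 36.0) and 12 of 72 of run 4 (16.7%, 8.92 to 27.3). The intervals cover counting error only, and they overlap in all 4 runs. In CPM (region counts scaled to the normalised total of the run) it held 78.8 and 73.1 at 0 hours and 210.2 and 154.0 at 24 hours, a log2 change of 1.24 (SE 0.57, adjusted p = 0.358). On this scale both runs at 24 hours exceeded both at 0 hours.

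Another region, 18.6 kb upstream from 32617482 to 32617660, had signal in 1, 2, 10 and 4 cells of runs 1 to 4. Its log2 change was 2.18 (SE 0.93, adjusted p = 0.316), and run 3 gave most of the 24-hour signal. A further one, 44.3 kb upstream from 32591912 to 32592004, was seen in 1, 0, 2 and 7 cells, with a log2 change of 2.80 (SE 1.26, adjusted p = 0.339). There the 24-hour signal came mostly from run 4, so the same run did not carry every Ets1 region. The other 4 Ets1 regions were seen in 7 to 14 cells, with log2 changes from 0.27 to 1.85. The 24-hour runs did not move together in all of them. The region 20.0 kb upstream was seen in 3, 2, 5 and 0 cells, and the one 36.1 kb downstream in 1, 2, 7 and 1 cells, with 7.33 CPM in run 4 against 12.1 and 20.9 at 0 hours. The one 32.1 kb downstream was seen in 6.32% of all 0-hour cells and 6.06% of all 24-hour cells.

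**Figure D1:**
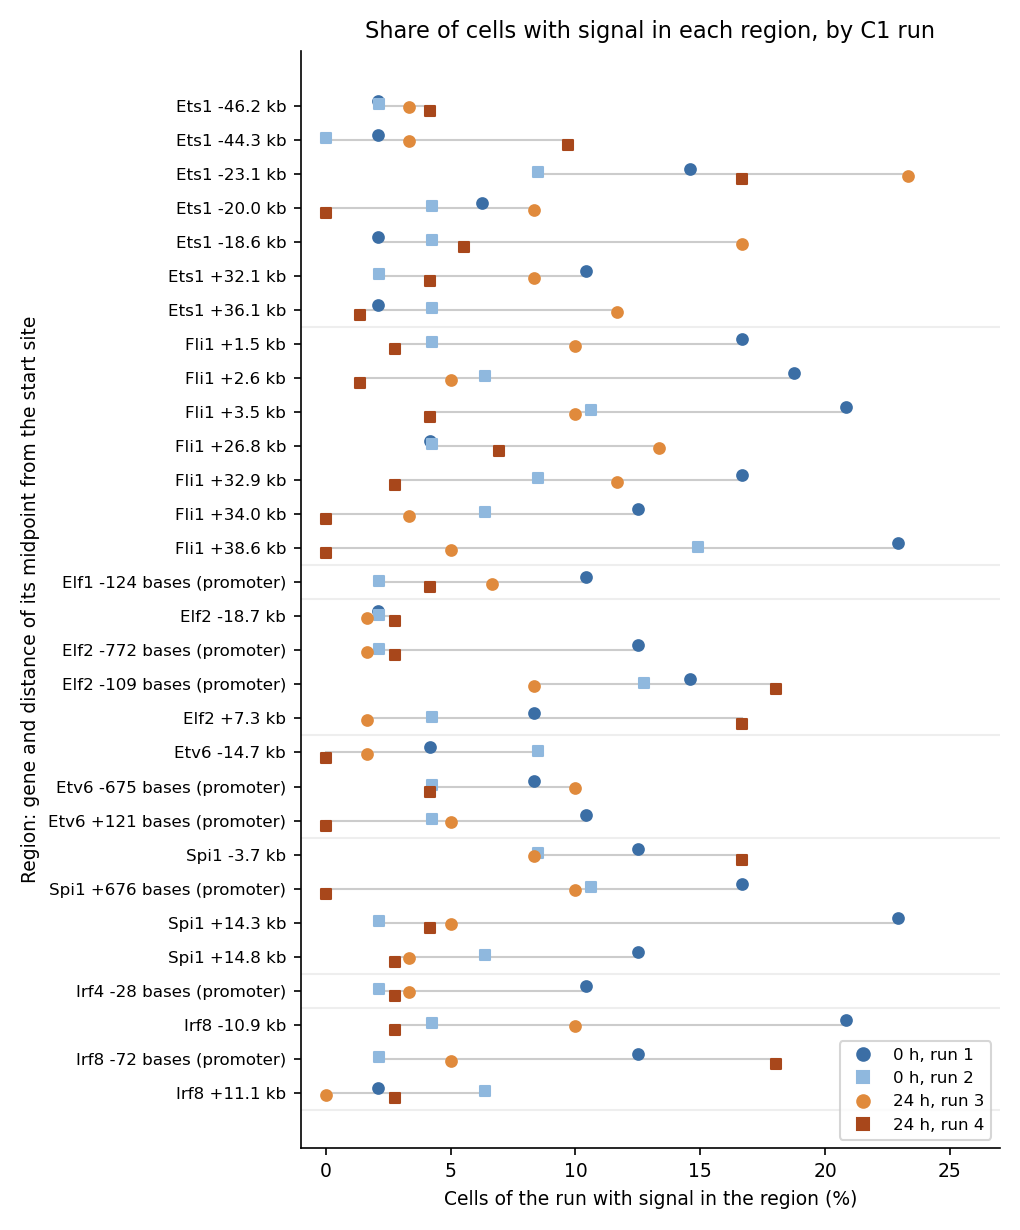
Share of the cells of each C1 run (x axis, percent) with signal in each of the 30 regions, one line per region, named by gene and distance from the start site, with 0-hour runs in blue and 24-hour runs in orange. Shares lie between 0% and 23.3%, and the 24-hour runs lie apart from each other in many regions, as in the Elf2 region 7.3 kb downstream.

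Summed over its 7 regions, Ets1 held 31 and 17 counts at 0 hours and 78 and 49 at 24 hours, or 188.0, 177.6, 630.7 and 359.4 CPM. The 24-hour runs did not overlap with the 0-hour runs, and the log2 change was 1.43 (SE 0.40). The adjusted p was 0.105 by edgeR's test over 12302 promoter and distal sums, of which 0.0325% were called, so the sum did not pass. Of the 4763 distal sums, 38 had an unadjusted p as small as that of Ets1 or smaller, 3.53% had one under 0.05 with higher signal at 24 hours, and 13.5% had both runs at 24 hours higher than both at 0 hours. Without run 4 the sum passed (log2 1.78, adjusted p = 0.0115), and the adjusted p was 0.168 to 0.731 without any other run. With all runs it was 0.0952 to 0.751 over the alternatives. The share of cells with any Ets1 region was 29.2%, 21.3%, 45.0% and 29.2% in runs 1 to 4. At an equal depth of 837 counts per cell it was 8.33%, 13.0%, 31.9% and 25.4%, with 48, 46, 47 and 63 cells kept.

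Around Fli1, an ETS factor of blood and vessel cells, no region passed the test, and the fitted change was below 0 in 5 of 7 regions, a share near the 62.4% of all distal regions below 0. All 7 regions were distal, in introns or a UTR of the gene, 1.5 to 38.6 kb from its start, and none lay within 1 kb of it, although the nearest was 215 bases from the start of another Fli1 transcript. The log2 changes had a median of -0.65, where the median of all distal regions was -0.43. In 4 regions both runs at 0 hours exceeded both at 24 hours, which 33.2% of all distal regions also showed, so this share is to be read against a high background. An unadjusted p under 0.05 with lower signal at 24 hours was found in 2 Fli1 regions and in 9.88% of all distal regions.

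The intronic region 38.6 kb downstream, from 32504174 to 32504318 on chromosome 9, had the smallest p of the member regions. Signal was found in 11 of 48 cells (22.9%, 95% exact interval 12.0 to 37.3) and 7 of 47 cells (14.9%, 6.20 to 28.3) at 0 hours. At 24 hours it was found in 3 of 60 cells (5.0%, 1.04 to 13.9) and 0 of 72 cells, where 3 counts would be a share of 4.17% and the exact interval reaches 4.99%. The 0-hour runs held 103.1 and 125.4 CPM and the 24-hour runs 48.5 and 0, and the groups did not overlap. The log2 change was -2.23 (SE 0.87, adjusted p = 0.284). Without run 3 the region passed the test (adjusted p = 0.00775), with run 4 alone at 24 hours and at 0 counts, and without run 4 the log2 change was -1.20.

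The region 34.0 kb downstream, from 32508819 to 32508887 in an intron, was seen in 6, 3, 2 and 0 cells, with a log2 change of -2.30 (SE 1.15, adjusted p = 0.410). That change was -6.05 without run 3, with run 4 alone at 24 hours and at 0 counts, and -1.31 without run 4. The region 3.5 kb downstream, from 32539307 to 32539436, was the Fli1 region in the most cells, with 10, 5, 6 and 3. Its log2 change was -0.65 (SE 0.73, adjusted p = 0.784), and in thinned cells it was 0.84. Without run 3 it was -1.62 and without run 4 it was -0.05. The remaining 4 regions had log2 changes from -1.46 to 1.49, and the region 26.8 kb downstream went the other way, with 2 and 2 cells at 0 hours and 8 and 5 at 24 hours.

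Summed, the Fli1 regions held 82, 41, 52 and 18 counts, or 497.3, 428.3, 420.4 and 132.0 CPM. Run 3 lay just below the 0-hour runs and run 4 far below. The log2 change was -0.76 (SE 0.40, adjusted p = 0.437), and it was -1.81 without run 3 (adjusted p = 0.00727) and -0.15 without run 4 (adjusted p = 0.957), so run 4 sets its size. Among all distal sums, 34.4% had both runs at 0 hours higher than both at 24 hours and 11.7% had an unadjusted p under 0.05 with lower signal at 24 hours. The share of cells with any Fli1 region was 62.5%, 40.4%, 40.0% and 16.7%, and at equal depth 29.2%, 26.1%, 27.7% and 9.52%.

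Both genes were counted in the same cells, so their counts can be set against each other within a run without any scaling. For each Fli1 count there were 0.38 and 0.41 Ets1 counts at 0 hours and 1.5 and 2.72 at 24 hours. The ratio was above 1 in both 24-hour runs and below it in both 0-hour runs. Leaving out the region with the most counts of each gene, an alternative chosen after seeing the data, gave 0.27, 0.31, 1.27 and 2.0. The ratio restates the sums of both genes given above and adds no separate evidence. It was not tested and is given as a description.

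**Figure D2:**
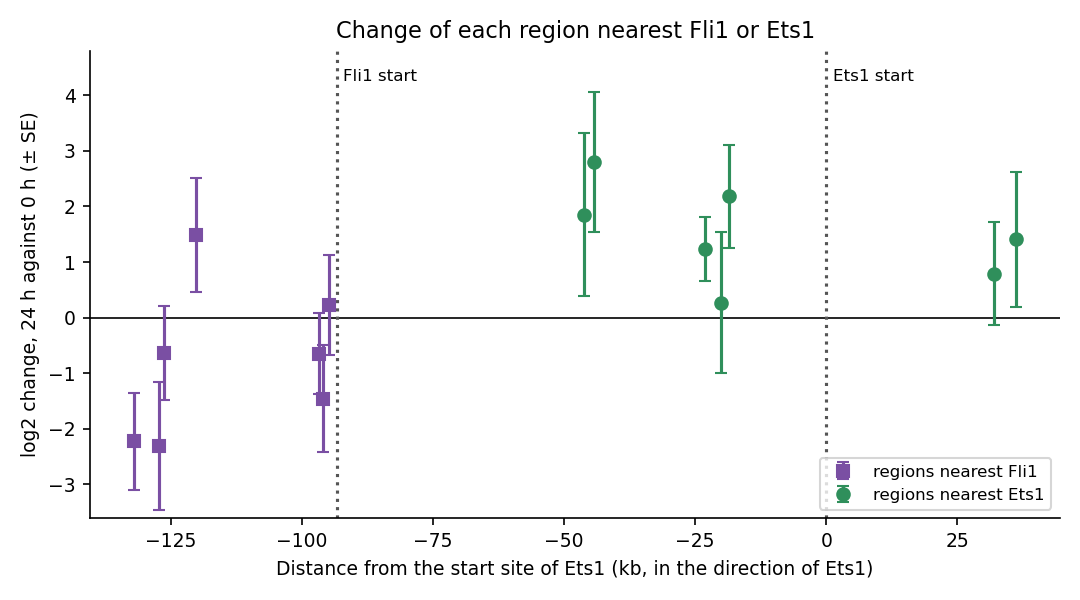
Log2 change from 0 to 24 hours (y axis, with SE over runs) of the 7 regions nearest Fli1 (squares) and the 7 nearest Ets1 (circles) against distance from the start site of Ets1 in kb. Dotted lines mark the start sites, 93.4 kb apart. All 7 Ets1 points lie above 0, as do 37.6% of all distal regions, and 5 of 7 Fli1 points lie below, as do 62.4%.

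Elf1, which encodes an ETS activator of lymphoid cells, had 1 region, 124 bases before its start on chromosome 14 and within a UTR of the neighbouring gene Wbp4, so the signal cannot be assigned to either gene. It was seen in 5, 1, 4 and 3 cells. The runs of both time-points overlapped, with a log2 change of 0.45 (SE 0.93, adjusted p = 0.896). Without run 1 the change was 1.24 and without run 2 it was 0.05.

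Elf2 encodes a relative of Elf1. Its promoter region 109 bases before the start, on chromosome 3 from 51340703 to 51340841, was the most widely detected promoter region of the group, in 7, 6, 5 and 13 cells. It held 60.6, 94.0, 48.5 and 132.0 CPM, so run 3 was the lowest and run 4 the highest, and the log2 change was 0.27 (SE 0.69, adjusted p = 0.919). The intronic region 7.3 kb downstream was seen in 4, 2, 1 and 12 cells, and again run 3 and run 4 were the extremes (log2 change 0.52, SE 0.94, adjusted p = 0.881). The other 2 Elf2 regions were seen in 5 and 10 cells.

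Etv6, a repressor of the ETS family needed in blood stem cells, had a distal region 14.7 kb upstream, on chromosome 6 from 134020931 to 134021018, whose window is the composite one printed above. It was seen in 2 and 4 cells at 0 hours and in 1 and 0 at 24 hours. In CPM these were 24.3, 73.1, 8.09 and 0, and the 2 time-points did not overlap. The log2 change was -3.29 (SE 1.51, unadjusted p = 0.0342, adjusted p = 0.353), on 7 cells in all. Without each run in turn it ran from -5.61 to -2.35. The promoter region at the start was seen in 5, 2, 3 and 0 cells (log2 change -0.86, SE 1.21, adjusted p = 0.837), and the other promoter region, 675 bases before the start, was seen in 4, 2, 6 and 3.

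Spi1, the gene of PU.1, had a promoter region 676 bases after its start, in an intron on chromosome 2 from 91083004 to 91083128. It was seen in 8 of 48, 5 of 47, 6 of 60 and 0 of 72 cells, and the exact interval of run 4 reaches 4.99% (3 counts would be 4.17%). In CPM the runs held 78.8, 73.1, 64.7 and 0, so 3 runs were alike and run 4 stood apart. The log2 change was -1.25 (SE 0.93, adjusted p = 0.637). Without run 4 it was -0.24 and without run 3, with run 4 alone at 24 hours, the region passed (adjusted p = 0.0349).

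The distal region 3.7 kb upstream of Spi1, from 91078612 to 91078780, did not share this drop in run 4. It was seen in 6, 4, 5 and 12 cells and held 54.6, 62.7, 64.7 and 154.0 CPM. Both runs at 24 hours exceeded both at 0 hours, run 3 only just, and the log2 change was 0.91 (SE 0.69, adjusted p = 0.648). It was 0.16 without run 4 and 1.40 without run 3, so run 4 carries most of it. The other 2 distal regions of Spi1 lay 14.3 and 14.8 kb downstream, 92 bases before and 396 bases after the start of another Spi1 transcript. They were seen in 11, 1, 3 and 3 cells and in 6, 3, 2 and 2 cells, so run 1 held most of the first. When regions were measured from the starts of all transcripts, the distal log2 change of Spi1 was 1.03 in place of -0.05.

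Irf4, which encodes a partner of PU.1, had 1 region, at its start site on chromosome 13, and no distal region within 50 kb. It was seen in 5, 1, 2 and 2 cells, with overlapping runs and a log2 change of -0.38 (SE 1.10, adjusted p = 0.931).

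Irf8, the other IRF partner, had a promoter region 72 bases before its start, on chromosome 8 from 120736211 to 120736362, that was seen in 6, 1, 3 and 13 cells. It held 66.7, 20.9, 48.5 and 124.7 CPM, and the log2 change was 0.88 (SE 0.78, adjusted p = 0.708), with 0.03 when run 4 was left out and 2.03 when run 1 was. Run 4 was the highest and run 2 the lowest, and the time-points overlapped. The distal region 10.9 kb upstream, from 120725360 to 120725467, lies in an intron of Gm20388, and was seen in 10, 2, 6 and 2 cells. Its log2 change was -0.63 (SE 0.90, adjusted p = 0.840), with run 1 the highest. The remaining Irf8 region, 11.1 kb downstream, was seen in 1, 3, 0 and 2 cells.

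**Figure D3:**
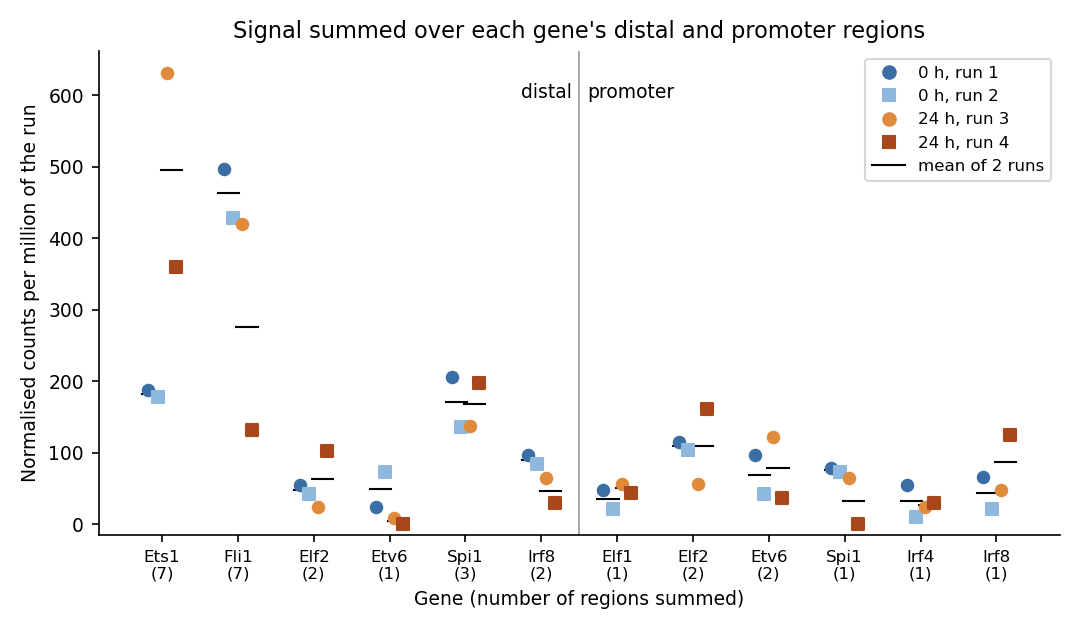
Normalised CPM of each C1 run (y axis), summed over the distal (left) and promoter (right) regions of each gene, with the number of regions in brackets, points for runs and bars for the mean of 2 runs. The 24-hour Ets1 distal sums, 630.7 and 359.4, lie above the 0-hour sums of 188.0 and 177.6.

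Levels of different genes were compared per kb of region. At 0 hours the mean distal level in CPM per kb was 562.3 for Fli1, 553.3 for Etv6, 402.3 for Spi1, 382.6 for Irf8, 206.1 for Ets1 and 193.5 for Elf2. Only Irf8 and Ets1 were neighbours in this order whose runs did not overlap. At 24 hours the order was Ets1 with 558.1, Spi1 with 394.7, Fli1 with 335.6, Elf2 with 254.9, Irf8 with 199.2 and Etv6 with 45.9. Here only the runs of Irf8 and Etv6, neighbours in the order, did not overlap. The place of Ets1 at 24 hours rests on run 3, where it had 711 CPM per kb. In run 4 it had 405, below Spi1 with 466 and Elf2 with 412. The order was not tested.

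Promoter against distal change could be compared within Elf2, Etv6, Spi1 and Irf8, which had both kinds of region. The promoter change minus the distal change was -0.32 log2 for Elf2 (SE 1.21, adjusted p = 0.946), 3.39 for Etv6 (SE 1.76, adjusted p = 0.491), -1.42 for Spi1 (SE 1.14, adjusted p = 0.673) and 1.88 for Irf8 (SE 1.30, adjusted p = 0.609). None passed edgeR's test of the class by time-point interaction over 2408 genes, of which 0.125% were called and whose median difference was 0.82. With promoter and distal columns normalized separately, that median was 0.10. Elf2 and Spi1 were 0.03 and 0.10 without run 4, so their direction rests on that run, and Irf8 was 0.58 without it. Etv6 ran from 2.14 to 4.84 without each run. By the starts of protein-coding transcripts, 2 Spi1 regions counted here as distal were promoter regions. The Spi1 difference was then -2.17 (adjusted p = 0.4635). Of all sums, 12.3% had an unadjusted p under 0.05. Among the members these were the distal sums of Ets1 and Etv6, with unadjusted p of 0.000712 and 0.0343.

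**Figure D4:**
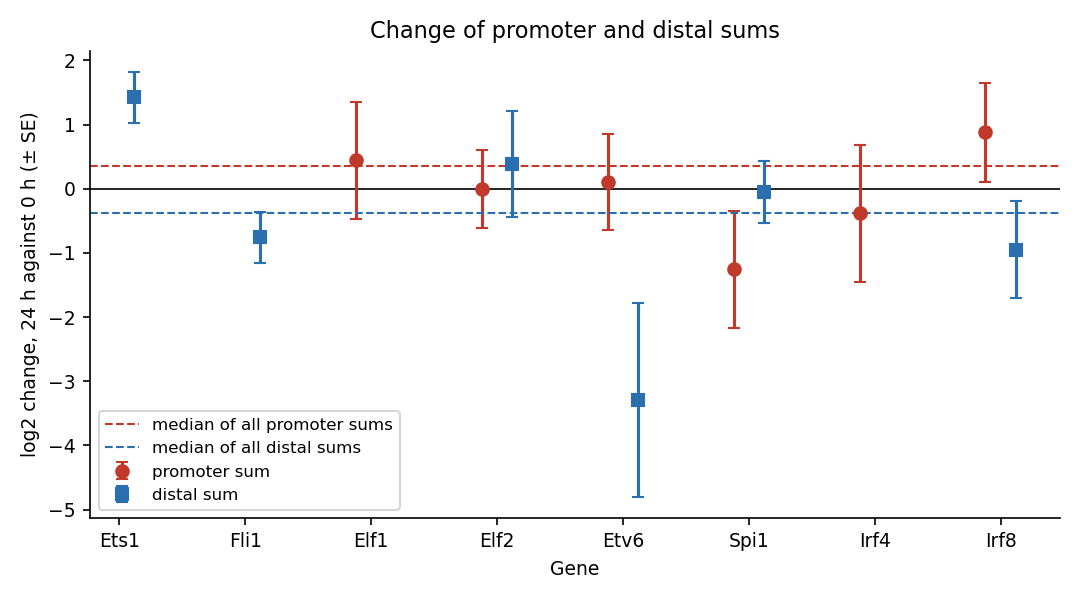
Log2 change from 0 to 24 hours (y axis, with SE over runs) of the promoter sum (circles) and the distal sum (squares) of each gene, with dashed lines at the medians of all promoter sums (0.36) and all distal sums (-0.38). The distal sum of Ets1 lies above both medians, and the promoter and distal points of Elf2, Etv6, Spi1 and Irf8 are not separated by the test.

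Across the matrix, promoter regions more often had higher 24-hour signal and distal regions higher 0-hour signal, so the members were read against their class. This holds for the TMM scale. With cell numbers as the offset, the median log2 change was -0.11 for all promoter sums and -0.84 for all distal sums. In 28.0% of all promoter regions both runs at 24 hours exceeded both at 0 hours, and in 13.1% the order was the opposite. Of the 8 member promoter regions, 0 had the former order and 1 the latter. Of the 22 member distal regions, 7 had the former, 5 of them Ets1 regions, and 6 the latter, against 13.3% and 33.2% of all distal regions.

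The other genes of both families gave no call. Of 18 other ETS genes, 9 had a promoter sum and 8 a distal sum. The median log2 change was -0.07 and -0.58, and 0 promoter and 0 distal sums had an unadjusted p under 0.05 with higher 24-hour signal, and 1 and 1 with lower. Of all promoter sums 8.66% had such a p with higher and 1.83% with lower 24-hour signal, and of all distal sums 3.53% and 11.7%. The 3 smallest p were those of Elk3 at its promoter (log2 -2.54, adjusted p = 0.304), with 13, 6, 1 and 2 counts, and of Etv5 (-1.98, adjusted p = 0.305) and Elf4 (-0.95, adjusted p = 0.456) at distal regions. Of 7 other IRF genes, 4 had a promoter sum and 5 a distal sum, with medians of 0.55 and -0.66, and only 1 of the distal sums had an unadjusted p under 0.05. The smallest p was that of the distal sum of Irf7, an interferon-inducing factor, with 9, 6, 1 and 1 counts (log2 -2.77, adjusted p = 0.320).

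A list of 18 genes known as ETS or IRF targets or cofactors in B-lineage cells also gave no call. Of its 11 promoter sums, 2 had an unadjusted p under 0.05 with higher 24-hour signal and 1 with lower, and of its 12 distal sums 0 and 2, to be read against the same shares of all sums. The promoter sum of Il7r, the receptor chain that drives pre-B cell growth, held 14, 7, 1 and 2 counts (log2 -2.69, adjusted p = 0.250). The distal sum of Batf, a partner of IRF4, held 19, 10, 6 and 0 (log2 -2.19, adjusted p = 0.282). The promoter sum of Ebf1, a factor that sets B-cell identity, held 14, 6, 17 and 30 (log2 1.24, adjusted p = 0.354).

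Motif letters in the member windows were few. The ETS type CCGGAAG was in 0 of 8 promoter windows and 1 of 22 distal windows, against 16.2% and 4.5% of all windows of those classes, and the match was in the Irf8 region 11.1 kb downstream. The PU.1 type GAGGAAG was in 0 and 1, against 7.9% and 16.3%. The composite GGAANNGAA was in 0 and 1, against 3.5% and 6.2%, and the interferon-response type GAAANNGAA in 0 and 1, against 2.6% and 4.7%, both in the Etv6 window. The Ikaros type TGGGAA was in 1 and 4, against 10.5% and 11.5%. The octamer ATTTGCAT, looked for only after these windows had been read, was in 0 and 2, against 0.8% and 1.6%. A match is a description of the letters and not a measured site.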

How the data were processed

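Single-cell ATAC-seq was analysed in 227 cells of 4 C1 runs, and the bulk samples were not analysed here. The authors mapped reads to mm10 with Bowtie2, removed duplicates with Picard, called peaks on bulk samples with HOMER and counted each cell in those peaks, per the labels and the study's methods. The deposited matrix holds whole-number counts without normalization, of which none exceeds 2 and 53.4% of the values above 0 are 2, and every region has signal in at least 5 cells.

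Counts were summed per run. The quasi-likelihood test of edgeR 4.0.16 (R 4.3.3) was run with TMM factors over all 20103 regions, and likewise over promoter and distal sums per gene. P-values were adjusted by Benjamini-Hochberg and called under 0.05. The promoter against distal test had the run as a block. Log2 changes are 24 against 0 hours, and the SE is the log2 change divided by the root of its F statistic. CPM values use the TMM factors. Start sites were the 5′ ends of GENCODE vM21 genes. Where the starts of all transcripts are named, only protein-coding transcripts were used. Cells were thinned to 837 counts for equal depth, leaving out 23. Windows and copies came from the GRCm38 genome with BLAST 2.17.0. Regions named were, for each gene, the promoter region nearest the start and the distal region in the most cells, and up to 6 with the smallest p and separated runs. DESeq2 1.42.0 was an alternative. The members and lists were chosen with earlier results of these data known. Every per-sample column was used.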

Additional observations from a re-analysis of the deposited data

How the results depend on the processing

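The coefficient of variation between runs was 0.42 in the region test. Called regions (8 higher and 3 lower at 24 hours) were 21 and 12 with run totals, 0 and 3 when cell numbers were the offset, 0 and 0 with DESeq2, with detected or not detected and with thinned cells, and 8 and 10 in regions seen in at least 10% of cells. Leaving out a run, where the lone run was taken to vary like the others, gave 1 to 456 and 0 to 341, and 0 to 2 member regions. Called sums (3 higher and 1 lower) were 8 and 7 with run totals, 0 and 0 with the offset, with detected or not detected and with thinned cells, 3 and 4 with DESeq2, 6 and 2 within 20 kb, 24 and 14 from the starts of all transcripts, and 0 to 451 and 0 to 262 without a run. Called promoter against distal differences (3, all promoter higher) were 0 with separate normalization, detected or not detected and all transcript starts, 1 with a 2 kb promoter, and 0 without each run. Member regions with separated runs (7 and 7) were 1 and 1 of the 5 seen in at least 10% of cells, and 8 to 13 and 9 to 13 without a run. The share of cells with any member region, 89.6%, 74.5% and 69.4% in runs 1, 2 and 4, was 60.4%, 56.5% and 50.8% in thinned cells, and 75.0% and 72.3% in run 3.

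Of single values that reversed, with the cause not tested, the offset gave -0.074 for the Elf1 region and -0.075 for its promoter sum, -0.040 for the Elf2 region 7.3 kb downstream, -0.17 for the Elf2 promoter region, -0.13 for the Elf2 distal sum and -0.41 for the Etv6 promoter sum. Thinned cells gave -0.19 and -0.39 for those 2 Elf2 regions, 0.84 for the Fli1 region 3.5 kb downstream and 0.10 for the Spi1 distal sum. Detected or not detected gave 0.14 for the Elf2 and -0.024 for the Etv6 promoter sum, the filter on cells -0.037 for the Elf2 promoter region, and all transcript starts 0.24 for the Elf2 promoter sum and 1.03 for the Spi1 distal sum. Without each run the log2 change of the Irf4 region ran from -1.0 to 1.30 (its sum the same), of the Elf2 regions from -1.14 to 1.32 and from -0.61 to 0.82, of the Elf2 sums from -0.99 to 1.04 (distal) and from -0.95 to 0.54 (promoter), of the Etv6 promoter region from -5.32 to 0.13 and its promoter sum from -0.99 to 0.90, of the Irf8 region 10.9 kb upstream from -2.01 to 0.33 and of the Spi1 distal sum from -0.35 to 0.33. The promoter against distal difference ran from -0.51 to 0.032 for Elf2 and from -6.54 to 0.10 for Spi1. The Ets1 distal sum was above 0 under every alternative, from 0.97 to 2.18, but it did not hold the same regions in all of them. Within 20 kb (2.18) it held only the region 18.6 kb upstream. From the starts of all transcripts (1.03) it lost the 5 upstream regions, which were then nearest to Fli1.

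Windows of 200 bases gave 3 in place of 1 PU.1 match and 7 in place of 5 Ikaros matches. The labels number the runs 1 to 4, whereas the matrix columns number them 1 and 2 within each time-point. The deviations of runs with the same column number had a correlation of -0.02 across 20103 regions. With so few counts per region, this value cannot tell whether such runs had a common origin. A replicate block on the column number, added after seeing the data, gave 9 and 2 called regions and 9 and 5 called sums, and no member passed.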

Other observations

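Member genes also had regions beyond 50 kb of their start sites. The nearest was an Ets1 region 59.8 kb downstream, on chromosome 9 from 32695908 to 32696044, 46 bases before the start of a protein-coding Ets1 transcript. It was seen in 14, 6, 13 and 15 cells of runs 1 to 4, against 37 cells in all for the most detected of the Ets1 regions within 50 kb, and its log2 change was 0.94 (SE 0.53, adjusted p = 0.498 by edgeR's quasi-likelihood test). When regions were assigned from the starts of all protein-coding transcripts, the 5 upstream Ets1 regions were nearest to Fli1. The Ets1 distal sum no longer held them, and it changed by 1.03 log2 (adjusted p = 0.575). Erg, an ETS factor of blood stem cells with no member region, had 2 regions 158.2 and 158.9 kb downstream of its start, and 30841 and 31534 bases from the start of another Erg transcript, which is within 50 kb. They were seen in 12, 1, 1 and 1 cells and in 6, 2, 4 and 1 cells. Irf4 had a region 84.4 kb downstream that was seen in 3 and 5 cells at 0 hours and in 1 and 0 at 24 hours (log2 change -3.56, SE 1.45, adjusted p = 0.303).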
